A study of Macaca mulatta with 39 samples.

Results

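The genes described here are the well-expressed members of the ZNF family in cultured rhesus macaque cells, 173 genes of the 282 ZNF symbols measured and of 14132 genes in all. A gene counted as a member when its symbol was ZNF followed by a number, with or without a final letter A, B or C, and when the mean log2 signal of its probe set reached 7 in at least 1 of 3 cell types. The symbol alone placed a gene in the family, so the set also holds ZNF185, a LIM domain protein. The cell types were embryonic stem cells (ESCs) of lines C3106 and C3806, fibroblasts grown out of teratomas that the same lines formed in immune-deficient mice, and skin fibroblasts of macaque parents of the lines. Teratoma cultures TA31, TB31, TC31, TD31 and TE31 came from line 3106 and TA38, TB38 and TC38 from line 3806, and the skin cultures were M032, M088 and M106p1. No group carried a treatment or an engineered allele, and each ESC line is a single line. Each of these 13 sources was run on 3 arrays that the labels call biological triplicates. The teratoma comparison set genetically identical cells side by side, and the skin comparison set related cells side by side.

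Most ZNF genes encode proteins with tandem C2H2 zinc fingers, which read DNA sequence. Many of them also carry a KRAB domain, which recruits the corepressor TRIM28 and with it the histone methyltransferase SETDB1, and the complex silences transposable elements and guards imprinted genes in pluripotent cells and early embryos. Other ZNF proteins have no KRAB domain and act in development (ZNF423, ZNF521), bind RNA (ZNF638, ZNF346) or sense stalled ribosomes (ZNF598).

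Of the 173 members, 115 reached 7 in ESCs, teratoma fibroblasts and skin fibroblasts alike. Another 27 reached it in ESCs only, 15 in ESCs and teratoma fibroblasts, 12 in both kinds of fibroblast, and 2 each in ESCs with skin and in skin only. The other 109 ZNF genes stayed under 7 in every cell type. Just inside the limit, by the highest of the 3 means, were ZNF500 at 7.005, ZNF169 at 7.01 and ZNF343 at 7.046, and just outside were ZNF296 at 6.995, ZNF41 at 6.993 and ZNF862 at 6.957. A member that entered through 1 or 2 cell types had to differ between them. Counts are therefore given first over all 282 ZNF symbols, which were not chosen by level, and the members' counts are a description.

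The arrays C3806c, M106p1f and TB31c stood apart from their labels and were left out of the values below. The array labelled C3806c, an ESC sample, had 4.84 for the pluripotency factor POU5F1 and 12.56 for the fibroblast gene LUM, against 12.67 to 13.17 and 2.83 to 3.71 in the other ESC arrays. The muscle myosin MYH3 was at 11.61 on the array labelled M106p1f and at 7.03 on that labelled TB31c, against 6.75 and 6.83, and 12.12 and 12.25, on the arrays kept from those cultures. On the 36 arrays kept, the 8 pluripotency markers averaged 11.50 and 11.61 in the ESC lines and 5.04 to 5.97 in the fibroblast cultures. SOX2, 1 of the 8, departed from that average, at 7.90 to 10.90 in TA31, TC31, TA38, TB38 and TC38. It was at 4.78 to 5.02 in TB31, TD31 and TE31 and at 4.33 to 4.55 in skin. The 6 fibroblast markers measured averaged 6.04 and 6.16 in the ESC lines and 12.26 to 12.86 in the fibroblasts. The gap between the 3′ and 5′ actin control probe sets, a sign of RNA quality, was 0.26 to 3.89 (median 0.74) on the 5 ESC arrays, 0.02 to 0.78 (median 0.17) on the 23 teratoma arrays and 0.05 to 0.59 (median 0.27) on the 8 skin arrays. The widest gap was that of C3806a, and its part in the results was not tested beyond leaving that array out. These are bulk cultures, in which fewer cells of a type and less RNA per cell cannot be told apart.

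The first comparison asked how ESCs differed from fibroblasts of their own genotype. ZNF genes were more often higher than lower in ESCs. Of the 282 ZNF genes, 33 were higher and 11 lower in ESCs, where a call needs an adjusted p under 0.05 and a log2 difference of at least 1, a doubling of the signal. These are 11.7% and 3.90% of the family, against 6.28% and 8.17% of all genes. The median difference was 0.19 over the ZNF genes and 0.02 over all genes. With no limit on the size of the difference, 114 ZNF genes were higher and 35 lower, where 21.9% and 16.9% of all genes were. Among the 173 members, 31 were higher and 10 lower, where 8.59% and 12.2% of all genes at 7 in at least 1 cell type were. Among the 115 members that reached 7 in all 3 cell types, 13 were higher and 4 lower, or 11.3% and 3.48%, against 5.85% and 8.84% of all genes at that level. All 39 arrays under their labels gave 20 higher and 9 lower ZNF genes. Without C3806a as well, 31 were higher and 13 lower, and the median difference of the ZNF genes was 0.11.

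Related zinc finger families did not share one pattern. Of 33 ZBTB genes, whose proteins join zinc fingers to a BTB domain, 1 was higher and 5 lower in ESCs than in teratoma fibroblasts. Of 23 ZSCAN and ZKSCAN genes, which carry a SCAN domain, 3 were higher and none lower, with 9 higher and 1 lower when no size was asked for. The difference between families was not tested. Both ESC lines lay above all 8 teratoma cultures for 114 of the 282 ZNF genes and below all of them for 36. For all genes these shares were 24.7% and 20.3%, and for ZNF genes 40.4% and 12.8%.

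**Figure D1:**
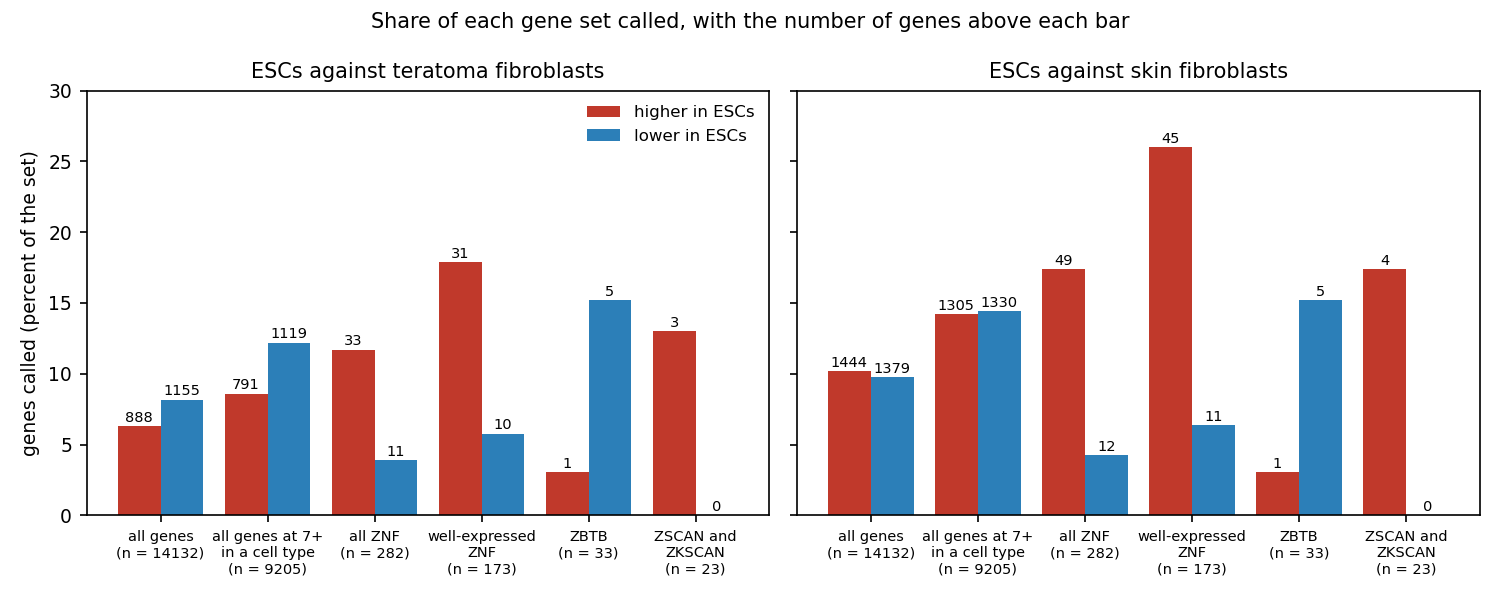
Percent of the genes of each set called higher (red) or lower (blue) in ESCs than in teratoma fibroblasts (left) and skin fibroblasts (right), with the number of genes above each bar. ZNF genes had 33 higher and 11 lower calls on the left and 49 and 12 on the right, while ZBTB genes had 1 and 5 on both sides.

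Among the genes higher in ESCs, ZNF385B (chromosome 12) showed the largest difference from teratoma fibroblasts. Its log2 signals were 10.23, 9.36 and 8.99 on the C3106 arrays and 8.00 and 9.94 on the C3806 arrays, where 8.00 is C3806a. The 23 teratoma arrays ran from 4.91 to 7.75 with a median of 6.12. The groups did not overlap, although the ESC arrays spread from 8.00 to 10.23. The difference was 2.95 ± 0.51 (SE) on the log2 scale (adjusted p = 0.00112, limma), and 3.44 without C3806a.

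ZNF141 (chromosome 5), a KRAB zinc finger protein known to bind transposable elements, was tightly grouped in ESCs. Its ESC arrays read 8.39, 8.50, 8.69, 8.33 and 8.60, and its teratoma arrays ran from 4.91 to 6.63 with a median of 5.73. The gap between the groups was thus wider than the spread of the ESC arrays. The difference was 2.78 ± 0.27 (adjusted p = 2.67e-05, limma).

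ZNF195 (chromosome 14), another KRAB zinc finger gene, read 8.53, 8.85, 9.12, 9.20 and 9.09 in ESCs and 5.72 to 7.14 (median 6.54) in teratoma fibroblasts. It was higher in ESCs by 2.59 ± 0.29 (adjusted p = 6.83e-05, limma). ZNF462 (chromosome 15), a large zinc finger protein required in early development, read 11.01, 10.58, 10.81, 11.06 and 10.90 in ESCs and 8.16 to 9.70 (median 8.61) in teratoma fibroblasts. No array of either gene crossed into the other group, and ZNF462 was higher by 2.22 ± 0.35 (adjusted p = 6.60e-04, limma).

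A further 4 of the 8 largest rises lay between 1.59 and 1.94. ZNF682 was higher in ESCs by 1.94 ± 0.30, and ZNF232, which carries a SCAN domain, by 1.71 ± 0.16. ZNF219, a partner of SOX9 in cartilage, was higher by 1.65 ± 0.31. ZNF217, an oncogene of breast cancer that acts with corepressors, was higher by 1.59 ± 0.25 from a teratoma median of 9.62. Their ESC arrays all lay above their teratoma arrays. The remaining 23 members higher in ESCs differed by 1.02 (ZNF74) to 1.56 (ZNF662), among them the imprinted gene ZNF215 at 1.44 ± 0.17 and ZNF711, an X-linked gene of intellectual disability, at 1.51 ± 0.48. For 2 members called higher, ZNF268 and ZNF559, ESC and teratoma arrays overlapped.

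The 10 members lower in ESCs included both members of the NET family of repressors, ZNF503 and ZNF703. ZNF503 (chromosome 9) read 4.53, 5.01, 5.15, 4.76 and 4.95 in ESCs, against 7.69 to 9.97 with a median of 8.62 in teratoma fibroblasts. The ESC arrays all lay below the teratoma arrays, and the difference was -3.72 ± 0.31 (adjusted p = 9.74e-06, limma). The ESC level was close to that of silent POU5F1 on the teratoma arrays (4.57 to 5.00). These values carry no detection call, so differences against such low signals are read as lower bounds and given on the log2 scale alone. ZNF703 (chromosome 8) read 5.65, 5.18, 5.34, 5.57 and 5.47 in ESCs and 6.50 to 8.36 (median 7.66) in teratoma fibroblasts. The ESC arrays again lay below the teratoma arrays, with a difference of -2.16 ± 0.36 (adjusted p = 8.61e-04, limma).

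ZNF469 and ZNF521 followed. ZNF469 (chromosome 20), mutated in brittle cornea syndrome, read 7.21, 7.30, 7.19, 6.69 and 7.36 in ESCs and 9.39 to 10.70 (median 9.97) in teratoma fibroblasts, a difference of -2.85 ± 0.22 (adjusted p = 6.05e-06, limma). ZNF521 (chromosome 18), a regulator of mesenchymal and neural progenitors, read 6.65, 6.47, 5.86, 5.89 and 6.74 in ESCs and 8.07 to 9.94 (median 9.08) in teratoma fibroblasts, a difference of -2.80 ± 0.37 (adjusted p = 1.93e-04, limma). Neither gene's ESC arrays reached the lowest teratoma array. The KRAB genes ZNF436 and ZNF641 differed by -2.12 ± 0.15 and -1.83 ± 0.10, ZNF362 by -1.35 ± 0.30, ZNF518A by -1.30 ± 0.26, ZNF275 by -1.15 ± 0.11 and ZNF534 by -1.07 ± 0.21. ESC and teratoma arrays overlapped for ZNF362, ZNF518A and ZNF534.

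**Figure D2:**
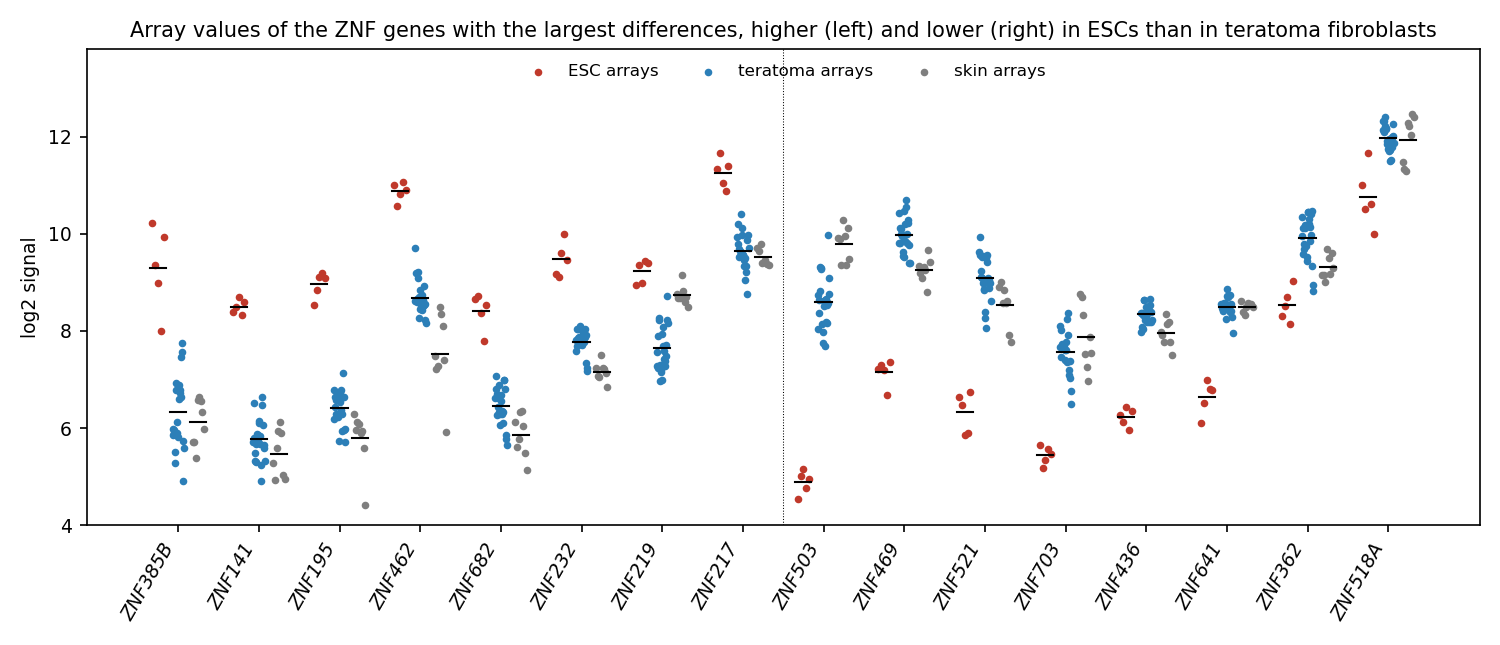
Log2 signal on each of 36 arrays for the 8 ZNF genes with the largest calls higher (left of the dotted line) and the 8 with the largest calls lower (right) in ESCs than in teratoma fibroblasts; each point is an array and each bar the mean over arrays of a cell type. For ZNF503 the ESC arrays lie at 4.53 to 5.15 and the teratoma arrays at 7.69 to 9.97.

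Each ESC line formed a class of its own in the fit, so the errors above come from the fibroblast cultures and take in no spread within ESCs. The 3 arrays of C3106 ranged over a median of 0.50 per member and the 2 kept from C3806 differed by a median of 0.35. The range was at least 2 in C3106 for ZNF534 (5.12), ZNF559 (2.34) and ZNF732 (2.05), and in C3806 for ZNF26 (4.35). A further 8 members differed by 1 to 2 between the C3806 arrays, among them ZNF385B (1.93). ZNF534, a KRAB gene read by a probe set that can cross-hybridise, was at 8.55 and 9.14 on C3106b and C3106d and at 4.02 on C3106c, and at 4.41 and 4.29 on the C3806 arrays. Its ESC arrays therefore lay both above and below its teratoma arrays (5.65 to 7.83), and its call rests on means over these.

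Other probe sets of a gene often showed a smaller difference, and for the named gene ZNF518A an opposite one past 1. Some others changed sign near 0, such as ZNF445 (-0.02) and ZNF616 (0.02). Of the 33 ZNF genes called higher against teratoma fibroblasts, 17 had another probe set. The brightest other one passed 1 the same way for 5 of them, had the same sign under 1 for 11 and the opposite sign for 1. Of the 6 such genes called lower, 4 passed 1, 1 had the same sign under 1 and 1 was opposite. ZNF385B held at 2.73, ZNF436 at -2.41, ZNF521 at -2.08 and ZNF275 at -1.17. ZNF503 was flat on both of its other probe sets (-0.06 and -0.09), ZNF219 on its other one (0.03), and ZNF682 was at 0.70. ZNF641 gave -1.09, -0.59 and -0.10. ZNF518A was higher in ESCs on its 3 other probe sets, by 2.06, 2.00 and 0.46, so its direction is not settled.

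The gene lists compared next were drawn up by function, and their counts stand against the 6.28% of all genes called higher and 8.17% called lower in ESCs than in teratoma fibroblasts. Of 9 measured ZNF genes of pluripotency and early embryos, 3 were higher (ZNF462, ZNF219 and ZNF217) and 1 lower (ZNF534), with a median difference of 0.27 against 0.02 over all genes. ZNF143, a promoter-binding factor, differed by -0.63 ± 0.10, ZNF322 by 0.27 ± 0.15 and ZNF398 by 0.08 ± 0.21. Of 10 ZNF genes of mesenchymal and neural development, 1 was higher (ZNF385B) and 5 lower (ZNF503, ZNF469, ZNF521, ZNF703 and ZNF804A), with a median of -0.90. ZNF423, the EBF1-binding relative of ZNF521 that marks preadipocytes, differed by 1.52 ± 0.94 and did not pass the test (adjusted p = 0.24, limma).

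Among 11 ZNF genes whose proteins act on RNA, ribosomes or the spindle, 1 was called (ZNF638, 1.07 ± 0.18, flat at 0.09 on its next probe set), and the median was 0.23. ZNF326, part of a complex that couples transcription to splicing, differed by 0.81 ± 0.18, under the size limit, and by 0.10 on its other probe set. The ribosome collision sensor ZNF598 differed by -0.02 ± 0.11. Of 8 KRAB genes known to bind transposons, ZNF141 was the 1 called, and the median was 0.25. ZNF91, which binds SVA elements, differed by 0.08 ± 0.10 and ZNF10, source of the KRAB domain used in many synthetic repressors, by 0.46 ± 0.09. Of 4 imprinted or imprint-guarding ZNF genes, ZNF215 was called. ZNF445, which guards imprints, differed by 0.45 ± 0.21, and by -0.02 on its other probe set.

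The last list held partners of KRAB repression together with general heterochromatin genes, none of them ZNF genes. Of 21 measured, 3 were called higher in ESCs than in teratoma fibroblasts and none lower, where 6.28% and 8.17% of all genes were. The median was 0.49 against 0.02 over all genes. With no size limit, 12 were higher and 1 lower (PPHLN1, -0.46 ± 0.15), where 21.9% and 16.9% of all genes were. TRIM28, the KRAB corepressor, was at 10.69 to 11.70 on the ESC arrays and at 9.35 to 10.46 on the teratoma arrays, which did not overlap. It was higher by 1.20 ± 0.20. The chromatin remodeller SMARCAD1 was higher by 1.61 ± 0.20 and the H3K9 methyltransferase EHMT2 by 1.40 ± 0.17. SETDB1 differed by 0.63 ± 0.10, under the size limit.

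The second comparison set ESCs against skin fibroblasts and used the same ESC arrays as the first. Of the 282 ZNF genes, 49 were higher and 12 lower in ESCs, or 17.4% and 4.26%, against 10.2% and 9.76% of all genes. The median difference was 0.28 over ZNF genes and 0.03 over all genes. With no size limit, 129 were higher and 24 lower, where 24.6% and 17.9% of all genes were. Among members, 45 were higher and 11 lower, where 14.2% and 14.4% of all genes at 7 in at least 1 cell type were. Among the 115 at 7 in all cell types, 17 were higher and 3 lower, where 11.2% and 10.9% of all genes at that level were called. Both ESC lines lay above all 3 skin cultures for 141 ZNF genes and below them for 41, and these were 50% and 14.5% where all genes gave 33.3% and 27%. All 39 arrays gave 34 higher and 10 lower.

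Among genes higher in ESCs, ZNF711 and ZNF423 showed the largest differences from skin. ZNF711 (chromosome X) read 9.09, 9.48, 9.35, 9.38 and 9.53 in ESCs and 3.79 to 4.63 (median 4.20) on the 8 skin arrays. The difference was 5.18 ± 0.55 (adjusted p = 4.71e-05, limma), though its other, dimmer probe set gave 1.20. The skin arrays lay at the level of SOX2 in skin (4.20 to 4.62), a gene silent there, so differences of ZNF711 against skin are read as lower bounds. ZNF423 (chromosome 20) read 9.79, 9.95, 9.72, 10.51 and 9.74 in ESCs and 5.01 to 5.44 (median 5.31) in skin, a difference of 4.70 ± 1.07 (adjusted p = 0.00527, limma). Both genes were below the array medians (6.25 to 6.48) in all 3 skin cultures, though above the lowest value of the data, 2.11.

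The other large rises over skin were those of ZNF462 (3.45 ± 0.40), ZNF195 (3.29 ± 0.33), ZNF385B (3.13 ± 0.59), ZNF141 (3.08 ± 0.31), ZNF608 (2.64 ± 0.34) and ZNF682 (2.57 ± 0.34). ZNF608 (chromosome 6) read 8.70, 8.73, 8.84, 8.60 and 8.69 in ESCs and 5.45 to 6.83 (median 5.90) in skin. On the low side, ZNF503 stood at 9.36 to 10.29 in skin (median 9.90) and the difference was -4.92 ± 0.36 (adjusted p = 3.82e-06, limma). Both of its other probe sets were flat against skin too (-0.08 and -0.11). ZNF703 (-2.40 ± 0.41), ZNF469 (-2.16 ± 0.26), ZNF521 (-2.13 ± 0.42), ZNF641 (-1.83 ± 0.12) and ZNF436 (-1.70 ± 0.17) were also lower than in skin. The KRAB genes ZNF799 (-1.57 ± 0.40) and ZNF616 (-1.54 ± 0.38) were lower than in skin, while their differences from teratoma fibroblasts were -0.56 ± 0.35 and -0.93 ± 0.33. ZNF616 was flat (-0.01) on its other probe set, and ZNF219 did not pass the test against skin (0.54 ± 0.36, adjusted p = 0.269, limma). Of the 21 KRAB and heterochromatin partners, 7 were higher than in skin and none lower, where 10.2% and 9.76% of all genes were.

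**Figure D3:**
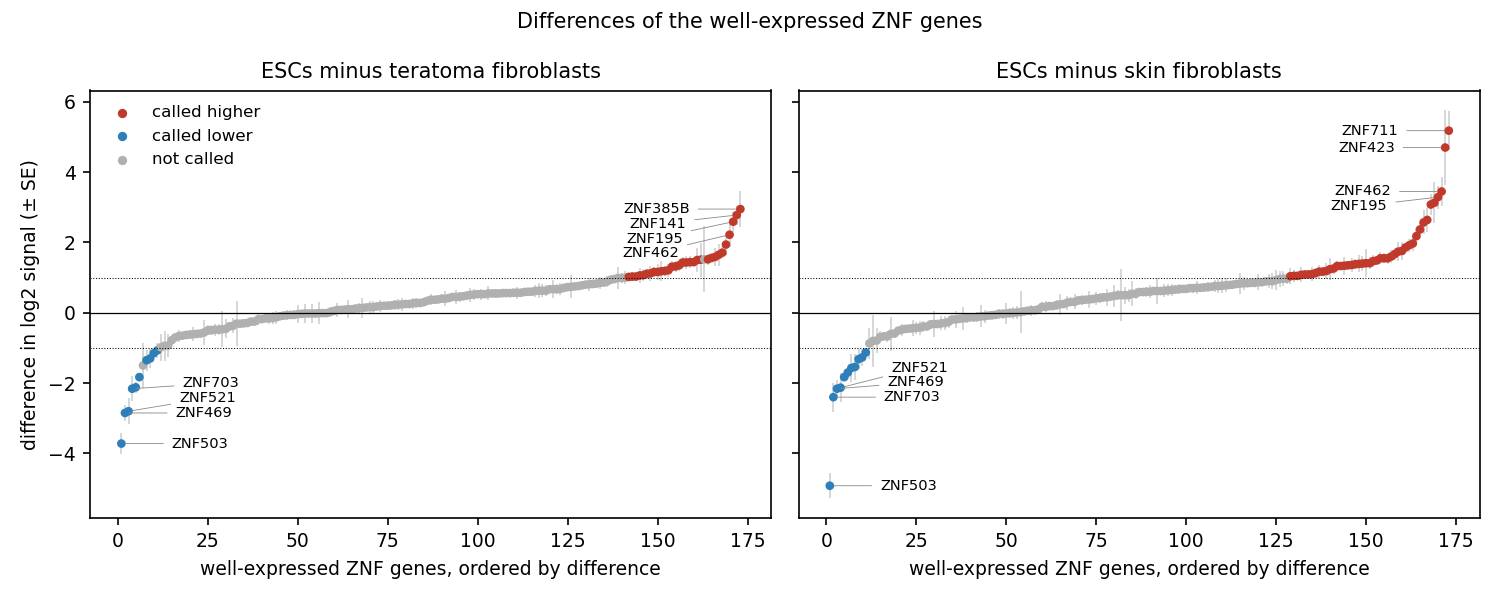
Difference in log2 signal, with its SE, of the 173 well-expressed ZNF genes between ESCs and teratoma fibroblasts (left) and skin fibroblasts (right), each panel in its own order; dotted lines mark a difference of 1 either way. Red points are the 31 and 45 genes called higher and blue points the 10 and 11 called lower; both panels share the ESC arrays.

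The third comparison set both kinds of fibroblast side by side. Few genes were called, among ZNF genes as among all genes. Of the 282 ZNF genes, 2 were higher and 2 lower in teratoma fibroblasts, or 0.709% each, near the 0.658% and 0.545% of all genes. With no size limit 12 and 2 of the 282 were, against 2.14% and 1.82% of all genes. The median difference was 0.09 over ZNF genes and 0.01 over all genes. All 8 teratoma cultures lay above all 3 skin cultures for 25 ZNF genes and below them for 4. These were 8.87% and 1.42%, where all genes gave 4.45% and 3.14%. Among the members, ZNF711 was higher in teratoma fibroblasts by 3.67 ± 0.41 (adjusted p = 0.00286, limma). Its teratoma arrays ran from 5.77 to 8.77 with a median of 7.97, above every skin array, and its other probe set gave 0.80. ZNF608 was higher by 1.65 ± 0.26 (adjusted p = 0.0127, limma), with 6.99 to 8.13 (median 7.72) on the teratoma arrays and no overlap with skin. ZNF503 was lower, with a difference of -1.20 ± 0.27 (adjusted p = 0.0422, limma), and its arrays overlapped between the fibroblast kinds. Both of its other probe sets were flat, at -0.02 each. Without skin culture M032 or M106p1, ZNF608 no longer passed the test, and ZNF503 lost its call in 8 of the 13 fits that left out 1 source. ZNF423 differed by 3.18 ± 0.80 and just missed the test (adjusted p = 0.0563, limma).

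No ZNF gene was called between the teratoma fibroblasts of lines 3806 and 3106 in the limma fit of source means, where 0.0425% of all genes were, and the fit with arrays as units gave none either. At an unadjusted p under 0.05 there were 21 ZNF genes, or 7.45%, against 4.49% of all genes. The nearest to a call among members was ZNF534. Its culture means were 7.41 to 7.67 in the 5 cultures of line 3106 and 5.90, 6.19 and 6.49 in the 3 of line 3806, which did not overlap. The difference was -1.34 ± 0.19 (adjusted p = 0.0753, limma). An interaction test asked if ESCs stood apart from teratoma fibroblasts by different amounts in the lines. No ZNF gene was called in that limma test, and 0.0566% of all genes were called. An unadjusted p under 0.05 was reached by 22 ZNF genes, or 7.80%, against 5.27% of all genes.

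Teratoma cultures of the same line differed from each other in a minority of ZNF genes. Here arrays of a culture are the replicates, so the test measures spread between arrays alone. Among the 5 cultures of line 3106, 23 of 282 ZNF genes were called, with an adjusted p under 0.05 and culture means ranging over at least 1. That is 8.16%, against 11.6% of all genes. Among the 3 cultures of line 3806, 8 were called, or 2.84% against 5.09%. Members made up 19 and 7 of these. In line 3106, TE31 was the lowest culture for 10 of the 19 members and the highest for 1. Among all 1639 genes called, TE31 was also the most frequent lowest culture, at 39.2%, and it was the highest for 28.4%. Without TE31, 13 ZNF genes were called in line 3106. Without TA38 none was called in line 3806, where 84 had an unadjusted p under 0.05 and 45 an adjusted one, and without TB38 4 were.

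ZNF423 had the widest range in line 3106. Its arrays read 9.74, 9.89 and 9.97 in TD31, 9.03 and 9.08 in TB31, 8.78, 8.73 and 8.68 in TA31, and 8.87, 8.64 and 8.51 in TC31. In TE31 they read 5.29, 5.13 and 5.53, where the skin arrays read 5.01 to 5.44. The range of culture means was 4.55 (adjusted p = 1.50e-20, limma F test). In line 3806, ZNF423 was lowest in TA38 (7.61) and highest in TC38 (9.27), a range of 1.66, second to ZNF395 at 1.80.

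Among the other members, some shared the extremes of ZNF423 in line 3106 and others did not. ZNF711 had culture means of 8.52 in TA31, 8.39 in TB31, 8.13 in TD31, 7.48 in TC31 and 6.32 in TE31. ZNF385B was highest in TD31 (7.60) and lowest in TE31 (5.41), and ZNF367 was likewise highest in TD31 (9.60) and lowest in TE31 (8.07). ZNF732, a KRAB gene, was highest in TC31 (10.86) and lowest in TE31 (8.54). ZNF395, a hypoxia-inducible factor, was highest in TB31 (9.80) and lowest in TC31 (7.57), and in line 3806 highest in TA38 (9.90) with 8.10 in TB38 and 8.12 in TC38. ZNF521 ranged over 1.46 and ZNF799 over 1.36 in line 3106. In line 3806, ZNF616 (1.20), ZNF385B (1.13), ZNF618 (1.11) and ZNF22 (1.04) also varied by more than 1.

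**Figure D4:**
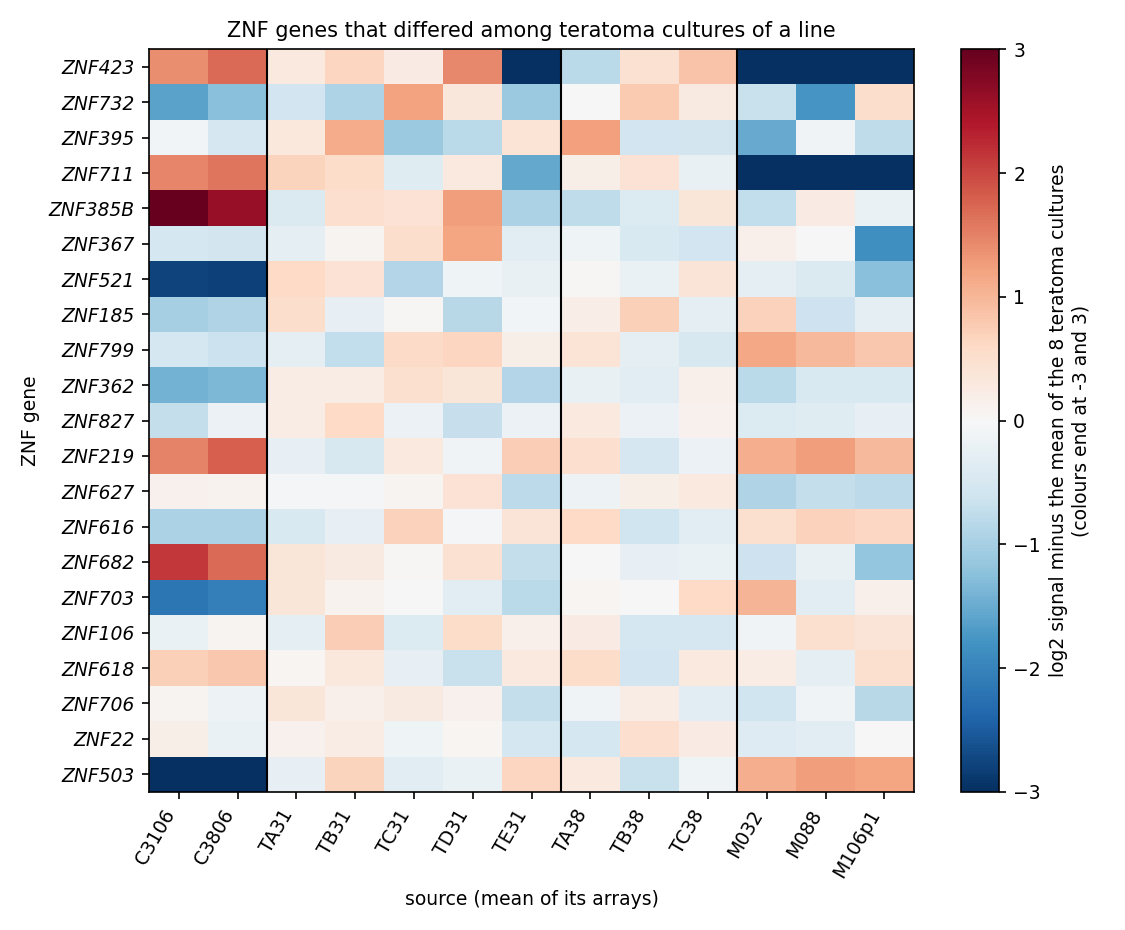
Mean log2 signal of each of 13 sources minus the mean of the 8 teratoma cultures (colours end at -3 and 3) for the 21 well-expressed ZNF genes called among cultures of line 3106 or line 3806. ZNF423 and ZNF711 are low in TE31 and in the 3 skin cultures.

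The cultures also differed in muscle markers, in PAX6, a neural marker, and in the pluripotency marker SOX2. The 5 muscle markers measured averaged 10.13 in TB31 and 10.04 in TD31, 7.96 in TA38 and 7.75 in TB38, and 5.50 to 6.55 in the other teratoma cultures, against 5.51 to 6.04 in skin. Of the 3 neural markers measured, PAX6 was at 10.29 in TA31, 11.05 in TA38, 9.58 in TB38, 8.87 in TC38 and 8.20 in TC31, and at 5.25 to 6.37 in TB31, TD31 and TE31. TUBB3 (9.88 to 10.32) and GFAP (7.28 to 8.00) did not follow PAX6. SOX2 was high in the same cultures as PAX6, at 10.33 in TA31, 9.37 in TA38, 10.90 in TB38, 8.94 in TC38 and 7.90 in TC31. TE31, with the lowest ZNF423, ZNF385B and ZNF711, was low in the muscle markers and had 6.37 for PAX6. The averages of the epithelial, leukocyte, endothelial and melanocyte lists spanned less than 1 between teratoma cultures, although the epithelial marker KRT18 ran from 6.85 in TB31 to 8.92 in TB38 and the leukocyte marker CD68 from 6.83 in TC31 to 7.90 in TD31. The part of these cell types in the ZNF values was not tested.

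**Figure D5:**
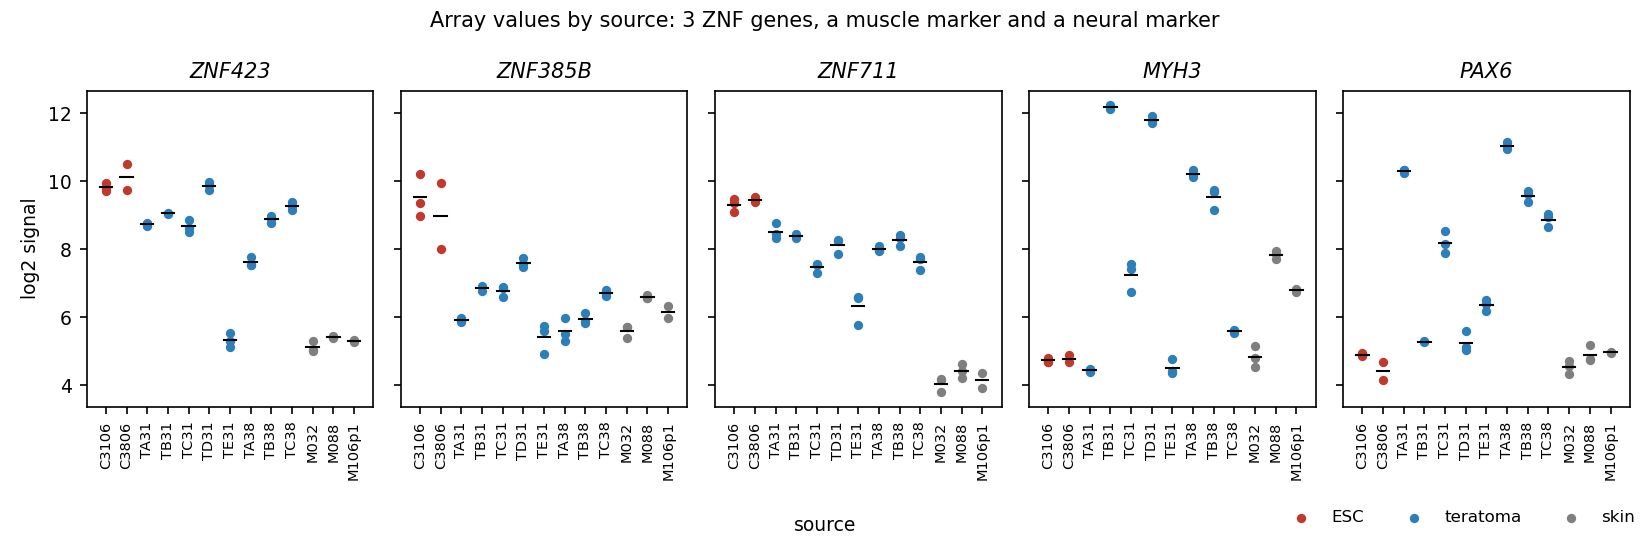
Log2 signal on each array of the 13 sources for ZNF423, ZNF385B, ZNF711, the muscle myosin MYH3 and the neural factor PAX6; points are arrays and bars source means. TE31 has the lowest teratoma values of all 3 ZNF genes, at 5.32, 5.41 and 6.32.

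Over the 13 sources, the means of a member ranged over a median of 1.15, with quartiles of 0.87 and 1.76. At least 2 was reached by 30 of the 173 members, led by ZNF711 with 5.41, and 14 stayed under 0.5. Over all 282 ZNF genes, not chosen by level, the median range was 0.94, with 33 at 2 or more and 59 under 0.5. Over all 14132 genes the median range was 0.82, with 2297 genes at 2 or more and 4346 under 0.5. The members were chosen by level and all genes were not, so their ranges are not directly comparable. The steadiest members, named after their values were seen, were ZNF414 (0.25), ZNF343 (0.28) and ZNF76 (0.28). The ESC lines differed by a median of 0.20 per member and 0.15 over all genes. They differed by at least 1 for 2 members, ZNF534 (-2.88, C3806 minus C3106) and ZNF26 (-1.19), and for 170 of all 14132 genes. For ZNF26 the C3806 arrays read 9.19 and 4.84, against a C3106 mean of 8.21, so the difference is 0.98 without C3806b and -3.37 without C3806a and its direction rests on 1 array.

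By Pearson correlation over the 13 source means, ZNF141 was most like ZNF177 (0.99), ZNF652 (0.98) and ZNF678 (0.97), and ZNF385B most like ZNF177 and ZNF114 (both 0.92) and ZNF678 (0.91). ZNF503 was most like ZNF641 (0.90), ZNF275 (0.89) and ZNF407 (0.85), and these were also the nearest to ZNF703. All 13 points come from the same arrays, and the ESC lines against the fibroblasts make up much of each correlation.

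In the genome, 49 members lie on rhesus chromosome 19, the home of the large KRAB clusters, 16 on chromosome 20 and 13 on chromosome 1. Chromosome 19 holds 104 of the 282 ZNF genes and 905 of all 14132 genes. Of these 104, 8 were higher and 1 lower in ESCs than in teratoma fibroblasts. That is 7.69% and 0.962%, where 6.52% and 4.53% of all 905 genes on it were. On the other chromosomes 25 of 178 ZNF genes were higher and 10 lower, or 14% and 5.62%. For all genes on any chromosome the shares were 6.28% and 8.17%. Whether the shares differ between chromosomes was not tested.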

How the data were processed

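Per the submitters' processing notes, the authors made the deposited log2 values with GCOS and RMA, whose versions the sources used here do not state. RMA equalises array distributions, so a change shared by most genes would not show. Of 52865 probe sets, 24956 named a single gene, and each of 14132 genes was read by its brightest probe set over the 36 arrays kept. Chromosomes came from RefSeq's T2T-MMU8v2.0 gene table. Arrays were averaged per source, and limma 3.58.1 (R 4.3.3) was run on the 13 averages with 5 classes: each ESC line, teratoma cultures of each line, and skin (8 residual degrees of freedom). ESCs were set against teratoma fibroblasts by the mean of both within-line differences. Adjusted p-values are Benjamini-Hochberg over all genes, two-sided. Culture tests were limma F tests on arrays (23 residual degrees of freedom); the labels do not say whether arrays of a source are separate cultures, so their spread may be technical. The number of arrays limits precision. On simulated data, 92 of 100 genes changed by 1.5 and 100 of 100 changed by 2.5 were called between ESCs and teratoma fibroblasts, with 7 unchanged genes. The simulated ESCs were given the spread of the fibroblast cultures, so these figures do not cover spread within ESCs.

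The family, the lists and the arrays left out were chosen with earlier results of these data known. Named genes were the 8 largest calls each way per cell type comparison, the 8 and 6 widest ranges among cultures of lines 3106 and 3806, genes beside the level limit, up to 4 per list, and the 3 most like each of 4 anchors; further names were added after their values were seen. Alternatives changed the arrays, probe sets, centring, filter, size limit and unit, and left out each source. Array letters were not used to pair samples in the main fit. Deviations of same-letter arrays correlated at a median of 0.049, with 71 of 178 pairs over 0.1. Those of other pairs correlated at -0.023, with 131 of 419 over 0.1. With the letter in the fit, the ZNF median, ESC minus teratoma, was 0.12, against 0.19 in the main fit.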

Additional observations from a re-analysis of the deposited data

Results flagged for a closer look

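In 3 of 50 ZNF genes looked at, 1 of the 8 teratoma cultures stood apart from the others, with a gap to its nearest neighbour above the 95% critical share of the whole range. Chance flags about 1 in 20 genes. ZNF711 was at 6.32 in TE31, where the nearest culture was at 7.48 and the farthest at 8.52. ZNF232 was at 7.25 in TE31, with the other cultures between 7.69 and 7.98. ZNF275 was at 9.38 in TC38, with the other cultures between 9 and 9.16.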

How the results depend on the processing

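Between ESCs and fibroblasts, ZNF genes kept more calls higher than lower under every alternative run. The counts given are calls among 282 ZNF genes, with 2 exceptions. The run on other probe sets covers the 118 ZNF genes with more than 1 probe set. The run on genes at 7 or more covers the 173 members. All 39 arrays gave 20 higher against teratoma fibroblasts (33 above), 0 lower in teratoma than in skin fibroblasts, 1 between teratoma lines and 5 among cultures of line 3806. The brightest other probe set gave 10 higher against teratoma fibroblasts, where the main probe sets of the same 118 genes gave 17. Only 5 of those 17 passed 1 the same way on the other probe set. The 10 therefore include genes that the main probe sets did not call. The other probe sets gave 0 higher in teratoma than in skin fibroblasts. Equal array medians gave 1 between teratoma lines and moved the median of all genes, ESC minus teratoma, from 0.023 to 0.126 and that of ZNF genes from 0.189 to 0.291. Genes at 7 or more alone gave 4 higher in teratoma than in skin fibroblasts, arrays as units 5 higher and 4 lower, and the replicate block (array letter) 4 higher; it changed no other count by over 1.5 times. No size limit gave 114 and 35 against teratoma fibroblasts, 129 and 24 against skin, 12 higher in teratoma than in skin, 1 between lines, and 90 and 74 among cultures of lines 3106 and 3806. Leaving out 1 source in turn gave 30 to 35 higher and 8 to 12 lower against teratoma fibroblasts, 46 to 55 and 10 to 13 against skin, 1 to 4 and 0 to 3 in teratoma against skin, 0 to 1 between lines, and 13 to 20 and 0 to 7 among cultures. ZNF518A reversed on its other probe sets (2.00, 2.06 and 0.46). For named genes, 443 of 455 values without 1 source kept their call; ZNF362 without C3106 was at -1.19 and ZNF518A without C3806 at -0.98, both no longer called. The causes were not tested.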
